A study of Mus musculus with 6 samples.

Results

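The genes described here are *Nfe2l2*, *Keap1* and 8 classic targets of NRF2, taken by gene symbol from a table of 45777 genes. All 10 were found, and 9 of them passed the filter on zero counts and were tested. Livers of 3 WT mice (*Pak4* flox/flox, without Cre) were compared with those of 3 LKO mice with Alb-Cre and *Pak4* flox/flox. All were C57BL/6 males of 8 weeks fasted for 24 h. All 6 mice carried the floxed *Pak4* alleles, and Cre was driven by the albumin promoter, which is active in hepatocytes. The WT mice lacked Cre, so an effect of Cre itself and the loss of PAK4 cannot be told apart, and no fed mice were sequenced.

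NRF2, the product of *Nfe2l2*, is a transcription factor that turns on antioxidant and detoxification genes. KEAP1 binds NRF2 in unstressed cells and hands it to a CUL3 ubiquitin ligase for degradation, and oxidants or electrophiles that modify KEAP1 let NRF2 accumulate and enter the nucleus. There it pairs with a small MAF protein on antioxidant response elements. In liver these targets make glutathione, reduce thioredoxin, break down heme and quinones and supply NADPH. Most control of NRF2 is exerted on the protein, which RNA does not measure.

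Promoter windows show where the letters of the antioxidant response element lie in these genes. RefSeq windows of 300 bases on GRCm38.p6, 250 before the start site and 50 after it, were given for 8 of the 10 genes, with 3 windows for *Txnrd1*. *Gclc* and *Hmox1* had no entry. The letters TGACNNNGC and the variant TGAGNNNGC were searched on both strands, and since they differ in the fourth letter, a stretch cannot match both on the same strand. At least 1 of them was found in 6 of the 10 windows, against 27.8% of all 32851 windows in the table, and these 6 belonged to 6 different genes. The stretches before the start site are shown because NRF2 acts through this element, with each match in capitals.
*Nfe2l2* (chr2:75704875-75704913, minus strand): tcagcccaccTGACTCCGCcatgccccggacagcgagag
*Gclm* (chr3:122245403-122245451, plus strand): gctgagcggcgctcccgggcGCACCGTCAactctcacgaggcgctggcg
*Slc7a11* (chr3:50443682-50443730, minus strand): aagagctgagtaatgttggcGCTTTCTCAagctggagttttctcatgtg
*Txnrd1* (chr10:82859094-82859142, plus strand): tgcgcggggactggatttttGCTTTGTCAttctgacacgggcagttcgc
*Srxn1* (chr2:152105346-152105507, plus strand): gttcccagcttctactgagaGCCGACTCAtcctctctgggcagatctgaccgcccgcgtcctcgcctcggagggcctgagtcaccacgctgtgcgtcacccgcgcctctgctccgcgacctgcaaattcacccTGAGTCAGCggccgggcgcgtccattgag
*G6pdx* (chrX:74428909-74428957, minus strand): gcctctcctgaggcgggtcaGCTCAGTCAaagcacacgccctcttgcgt
*Srxn1* held 2 TGAGNNNGC matches here and a TGACNNNGC match after its start site, whereas *Nqo1* and *Keap1* held neither set of letters in their windows. The *Txnrd1* match lay in the window that starts at 82858956, inside the span of the gene. Its windows that start at 82833701, around the first base of the span, and at 82860091 held neither. The *Slc7a11* window, 50443564 to 50443863, also lay inside the span of its gene. A match is a run of letters and no evidence of binding, and no match says only that these letters are absent from the window.

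The 3 WT libraries held 45934632 to 55205564 read counts and the 3 LKO libraries 53936281 to 59576437. Counts were scaled by TMM, which sets libraries on the bulk of the genes, and are given relative to library size as CPM. The TMM factors were 1.28 to 1.43 in WT and 0.639 to 0.816 in LKO mice, without overlap. With them moved 7SK, a short nuclear RNA, whose gene *Rn7sk* was at 3891 to 4487 CPM for WT mice against 29508 to 36574 CPM for LKO mice. Scaling on total counts instead moved the median log2 fold change of all genes from −0.04 to −0.90, so changes are given relative to the bulk of genes unless stated. *Pak4* was at 3.59, 3.21 and 4.10 CPM for WT mice against 1.93, 1.49 and 3.22 CPM for LKO mice, and LKO mouse 3 lay within the WT range (log2 fold change −0.71, adjusted p = 0.10 from edgeR). Without LKO mouse 3 its log2 fold change was −1.08 (adjusted p = 0.015, edgeR), and with total counts and all mice it was −1.54 (adjusted p = 0.0056, edgeR). In TPM *Pak4* was 2.44 ± 0.141 in WT against 0.522 ± 0.295 in LKO mice (SD, n = 3). It was thus lower in LKO mice without overlap, as were 74.9% of all genes tested.

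Of the 9 NRF2 genes tested, 4 fell in LKO livers and 0 rose, with an adjusted p-value under 0.05 in edgeR's quasi-likelihood test. The 4 were *Gclc*, *Nfe2l2*, *Txnrd1* and *G6pdx*. Over all 18636 genes tested, 20.5% were called lower and 19.6% higher. At an unadjusted p under 0.05, 5 of the 9 were lower and 0 higher, beside 25.4% lower and 23.5% higher among all genes, and edgeR's exactTest and DESeq2 also called 0 higher, beside 20.8% and 20.9% of all genes. Without LKO mouse 3, whose *Pak4* lay within the WT range, 5 of the 9 were called lower, the 4 and *Keap1*, beside 19.8% of all genes. The same 4 genes were the tested ones whose WT and LKO values did not overlap, and over all genes 27.9% were lower without overlap. The median log2 fold change of the 9 genes was −0.46, beside −0.04 for all genes tested. With total counts in place of TMM, 8 of the 9 were called lower, against 51.4% of all genes called lower and 6.27% called higher. Totals of protein-coding genes gave 7 lower (44.4% of all genes), limma on log2(TPM + 1) gave 9 (71.5%), a correction for gene length after TMM gave 2 (18.9%), and an adjusted p under 0.01 left 2 (11.3%). The 2 that remained under both of the last were *Gclc* and *Nfe2l2*. Less RNA per hepatocyte and fewer hepatocytes cannot be told apart in whole liver.

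**Figure D1:**
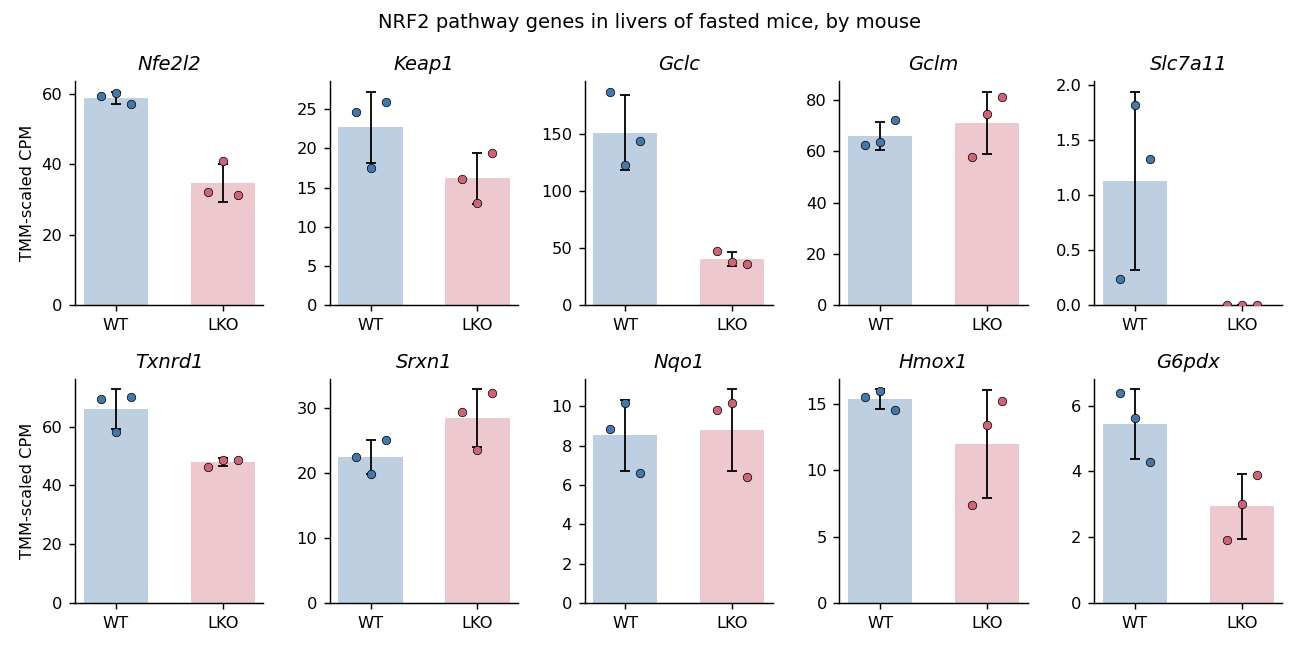
TMM-scaled CPM (y axis, linear, from 0) of the 10 genes in WT and LKO livers. Points are mice, bars are means and error bars are SD (n = 3). *Nfe2l2*, *Gclc*, *Txnrd1* and *G6pdx* do not overlap between genotypes, *Slc7a11* is at 0 in every LKO mouse, and *Keap1*, *Gclm*, *Srxn1*, *Nqo1* and *Hmox1* overlap.

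*Nfe2l2* (Entrez gene 18024, chromosome 2 from 75675513 to 75704663, GRCm38.p6) encodes the transcription factor itself. Its read counts were 4421, 3952 and 3771 in WT and 1411, 1430 and 1451 in LKO mice, which gave 59.3, 60.4 and 57.0 CPM against 32.1, 41.0 and 31.4 CPM. Every LKO mouse lay below every WT mouse. The level fell from 58.9 ± 1.73 to 34.8 ± 5.37 CPM (SD, n = 3 each), which is −0.76 ± 0.15 (SE) in log2 fold change (edgeR, adjusted p = 0.0048). Leaving out any single mouse gave values between −0.90 and −0.69, and the largest adjusted p was 0.019 (edgeR).

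*Keap1* (Entrez gene 50868, chromosome 9 from 21229730 to 21239332) encodes the inhibitor. It was at 24.7, 17.5 and 25.9 CPM for WT mice against 16.1, 13.0 and 19.4 CPM for LKO mice, and the highest LKO mouse lay above the lowest WT mouse. Its log2 fold change of −0.49 ± 0.21 (SE) did not pass (edgeR, adjusted p = 0.097). Without WT mouse 2 it was −0.67 (adjusted p = 0.0496) and without LKO mouse 3 it was −0.64 (adjusted p = 0.046, edgeR), so a single library moved it past the threshold. The balance of factor to inhibitor within a library, which no scaling can move, was 2.41, 3.45 and 2.20 *Nfe2l2* counts per *Keap1* count in WT and 1.99, 3.16 and 1.61 in LKO mice. These ratios overlapped and their means, 2.69 ± 0.671 and 2.25 ± 0.804 (SD, n = 3), did not differ beyond the spread (two-sided exact permutation test, p = 0.5, where 3 against 3 mice cannot give less than 0.1).

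Glutathione is made from glutamate, cysteine and glycine, and its first step is run by glutamate cysteine ligase, a dimer of the catalytic subunit GCLC and the modifier subunit GCLM. *Gclc* (Entrez gene 14629, chromosome 9 from 77754535 to 77794489) had 13935, 8026 and 9500 counts in WT and 2082, 1308 and 1654 in LKO mice. In CPM this was 187, 123 and 144 against 47.3, 37.5 and 35.8, so that the highest LKO mouse was far under the lowest WT mouse. The level fell 3.76-fold, which is −1.91 ± 0.20 (SE) in log2 fold change (edgeR, adjusted p = 4.0e-04). Only 4.16% of all genes tested had a lower log2 fold change. *Gclc* stayed called in each alternative and with any mouse left out, where the largest adjusted p was 0.0033 (edgeR).

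*Gclm* (Entrez gene 14630, chromosome 3 from 122245487 to 122267215) was at 62.4, 63.5 and 72.4 CPM for WT mice against 57.8, 74.6 and 81.1 CPM for LKO mice. The LKO values lay on both sides of the WT values. Its log2 fold change of 0.11 ± 0.17 (SE) did not pass (edgeR, adjusted p = 0.64), and it turned to −0.76 with total counts (adjusted p = 0.0047), where the median of all genes was −0.90. The pseudogene *Gm6061* lies within the span of *Gclm* and had 450 to 694 counts per mouse, so some reads could be assigned to either.

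The subunits thus moved apart. A library held 2.99, 1.93 and 1.98 *Gclc* counts per *Gclm* count in WT and 0.819, 0.502 and 0.441 in LKO mice. Each LKO ratio was below 1 and each WT ratio above it. The mean ratio was 2.30 ± 0.599 in WT against 0.587 ± 0.203 in LKO mice (SD, n = 3), 3.92-fold lower with no overlap (two-sided exact permutation test, where p = 0.1 is both the result and the smallest value that 3 against 3 mice allow). In TPM, which counts per length of gene, the difference was 3.88-fold.

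**Figure D2:**
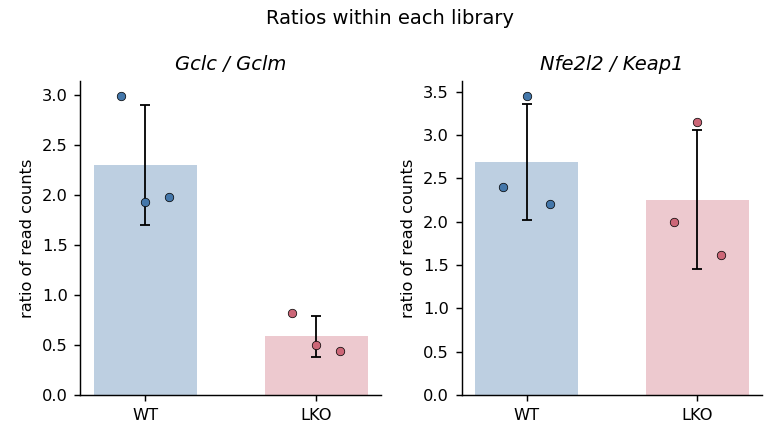
Ratios of read counts within each library (y axis, linear, from 0) for *Gclc* over *Gclm* and *Nfe2l2* over *Keap1* in WT and LKO livers. Points are mice, bars are means and error bars are SD (n = 3). The *Gclc* to *Gclm* ratio is 1.93 or more in each WT mouse and 0.819 or less in each LKO mouse, whereas the *Nfe2l2* to *Keap1* ratios overlap.

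*Slc7a11* (Entrez gene 26570, chromosome 3 from 50364936 to 50499087) encodes the light chain of the cystine and glutamate exchanger, which imports cystine for glutathione synthesis and is scarce in normal liver. It had 18, 119 and 88 counts in WT mice and 0 in each LKO mouse, which took it out of the test. Its WT level was 0.241, 1.82 and 1.33 CPM. Against a floor of 3 counts in each LKO library, the mean of WT mice was at least 15.5-fold higher, at least 10.8-fold higher without WT mouse 2, and at least 28.7-fold higher with total counts. The floor covers counting error only. The lowest WT mouse was at 3.31 times the floor, so the size of the fall rests on few reads.

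*Txnrd1* (Entrez gene 50493, chromosome 10 from 82833951 to 82897724) encodes the cytosolic thioredoxin reductase, which passes electrons from NADPH to thioredoxin. It was at 69.5, 58.1 and 70.1 CPM for WT mice against 46.3, 48.7 and 48.7 CPM for LKO mice, without overlap. In log2 fold change this was −0.46 ± 0.14 (SE; edgeR, adjusted p = 0.027). The call was lost without WT mouse 1 (adjusted p = 0.11), WT mouse 3 (0.11), LKO mouse 1 (0.074) or LKO mouse 2 (0.058), and after correction for gene length (0.088, all from edgeR). The direction was lower in each of these.

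*Srxn1* (Entrez gene 76650, chromosome 2 from 152105524 to 152111376) encodes sulfiredoxin, which repairs overoxidized peroxiredoxins. Its values were 22.5, 19.8 and 25.0 CPM for WT mice against 29.4, 23.6 and 32.2 CPM for LKO mice, and LKO mouse 2 lay within the WT range. The log2 fold change of 0.34 ± 0.17 (SE) did not pass (edgeR, adjusted p = 0.14), and it turned to −0.50 with total counts (adjusted p = 0.073), beside a median of −0.90 for all genes. It was the highest of the 9 on either scale.

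*Nqo1* (Entrez gene 18104, chromosome 8 from 107388225 to 107403205), a quinone reductase often used as a readout of NRF2, was at 8.83, 10.2 and 6.59 CPM for WT mice against 9.81, 10.2 and 6.42 CPM for LKO mice. The genotypes covered nearly the same range. Its log2 fold change of 0.04 ± 0.24 (SE) did not pass (edgeR, adjusted p = 0.90), and it turned to −0.84 with total counts (adjusted p = 0.024), beside a median of −0.90 for all genes.

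*Hmox1* (Entrez gene 15368, chromosome 8 from 75093618 to 75100593) encodes the inducible heme oxygenase, which opens the heme ring and is also made by liver macrophages. It was at 15.5, 16.0 and 14.5 CPM for WT mice against 7.41, 13.4 and 15.2 CPM for LKO mice. WT mice were close together, whereas LKO mouse 1 was low and LKO mouse 3 lay within the WT range. Its log2 fold change of −0.35 ± 0.25 (SE) did not pass (edgeR, adjusted p = 0.30). It was −0.10 without LKO mouse 1 and −0.57 without LKO mouse 3, neither called (adjusted p = 0.66 and 0.11), and −1.24 with total counts (adjusted p = 0.0031, edgeR). The summed level of 8 Kupffer cell and macrophage markers was 274 to 414 CPM for WT mice against 445 to 865 CPM for LKO mice. Of the 8 markers, 4 were called higher and 1 lower, beside 19.6% and 20.5% of all genes, and their part in the *Hmox1* values was not tested.

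*G6pdx* (Entrez gene 14381, chromosome X from 74409483 to 74428880) encodes glucose-6-phosphate dehydrogenase, the entry to the pentose phosphate pathway and a source of NADPH. It had 476, 368 and 284 counts in WT and 84, 105 and 180 in LKO mice, or 6.38, 5.62 and 4.29 CPM against 1.91, 3.01 and 3.89 CPM. The groups did not overlap, although LKO mouse 3 was close to WT mouse 3. In log2 fold change this was −0.89 ± 0.29 (SE; edgeR, adjusted p = 0.041). The call was lost without WT mouse 1 (adjusted p = 0.13), WT mouse 2 (0.094), LKO mouse 1 (0.092) or LKO mouse 2 (0.099), and after correction for gene length (0.062, all from edgeR). *Ikbkg*, which overlaps *G6pdx*, had 4137 to 9671 counts per mouse, and since the use of strand in counting is not given in the sources used here, reads of the pair could be shared.

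**Figure D3:**
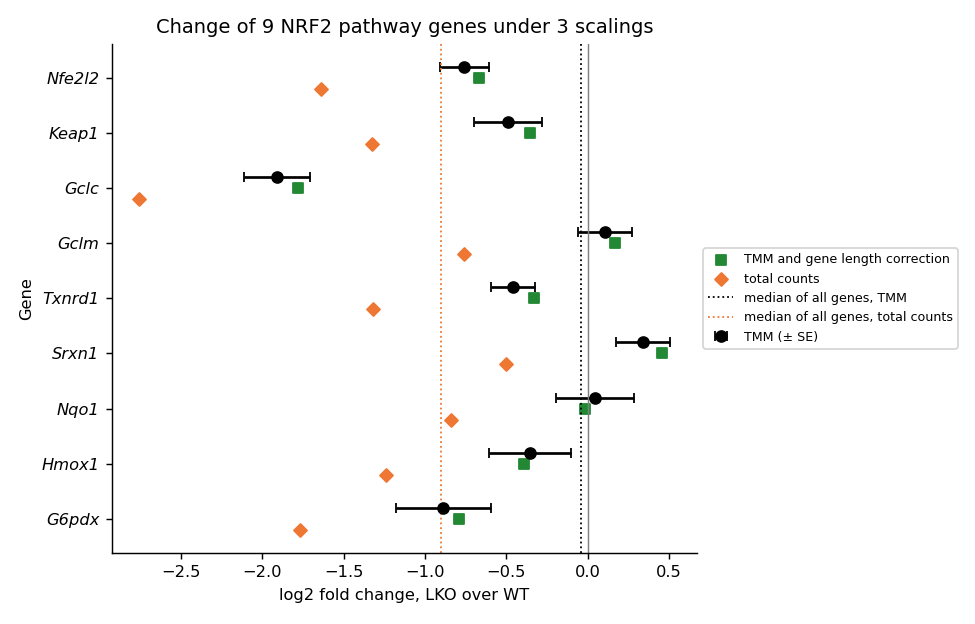
Log2 fold change of LKO over WT (x axis) for the 9 genes tested, after TMM (black, ± standard error), after TMM with correction for gene length (green) and with total counts (orange). Dotted lines mark the median of all genes tested, −0.04 after TMM and −0.90 with total counts, and *Gclc* lies far left of both whereas *Srxn1* lies right of both.

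The order of the genes by TPM, a level per length within a library, also differed between the genotypes. In WT mice *Gclc* led with 85.4 ± 17.5 TPM, followed by *Gclm* with 62.8 ± 3.18, *Nfe2l2* with 48.8 ± 4.70 and *Txnrd1* with 38.0 ± 2.05 TPM (SD, n = 3). Then came *Hmox1* with 19.2 ± 2.15, *Srxn1* with 15.6 ± 0.809, *Keap1* with 12.0 ± 1.85, *Nqo1* with 10.9 ± 2.96, *G6pdx* with 4.59 ± 1.05 and *Slc7a11* with 0.242 ± 0.183 TPM. Only *Keap1* and *Nqo1* overlapped among the 9 neighboring pairs. In LKO mice *Gclm* led with 23.4 ± 5.71 TPM, ahead of *Nfe2l2* with 10.5 ± 0.301, *Txnrd1* with 9.55 ± 1.53 and *Gclc* with 8.01 ± 2.09 TPM (SD, n = 3). *Srxn1* followed with 6.99 ± 2.15, *Hmox1* with 5.14 ± 2.00, *Nqo1* with 3.78 ± 0.758, *Keap1* with 3.12 ± 1.17 and *G6pdx* with 0.853 ± 0.361 TPM. In this order 6 of the 9 neighboring pairs overlapped, namely all from *Nfe2l2* down to *Keap1*. *Gclc* had the highest TPM of the 10 in 3 of 3 WT mice and *Gclm* in 3 of 3 LKO mice. In TPM all 9 tested genes were lower in LKO mice without overlap, as were 74.9% of all genes tested.

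Beyond the 10 genes, 7 lists held 75 further genes of the same machinery, of which 74 were tested, 17 rose and 26 fell in LKO livers. That is 23.0% higher, near the 19.6% of all genes, and 35.1% lower, against 20.5% of all genes. With total counts, 5 were called higher (6.76%, against 6.27% of all genes) and 48 lower (64.9%, against 51.4%). Each list is given by its counts, and no test of a list was made. The most abundant gene of a list is the one with the highest mean TPM.

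**Figure D4:**
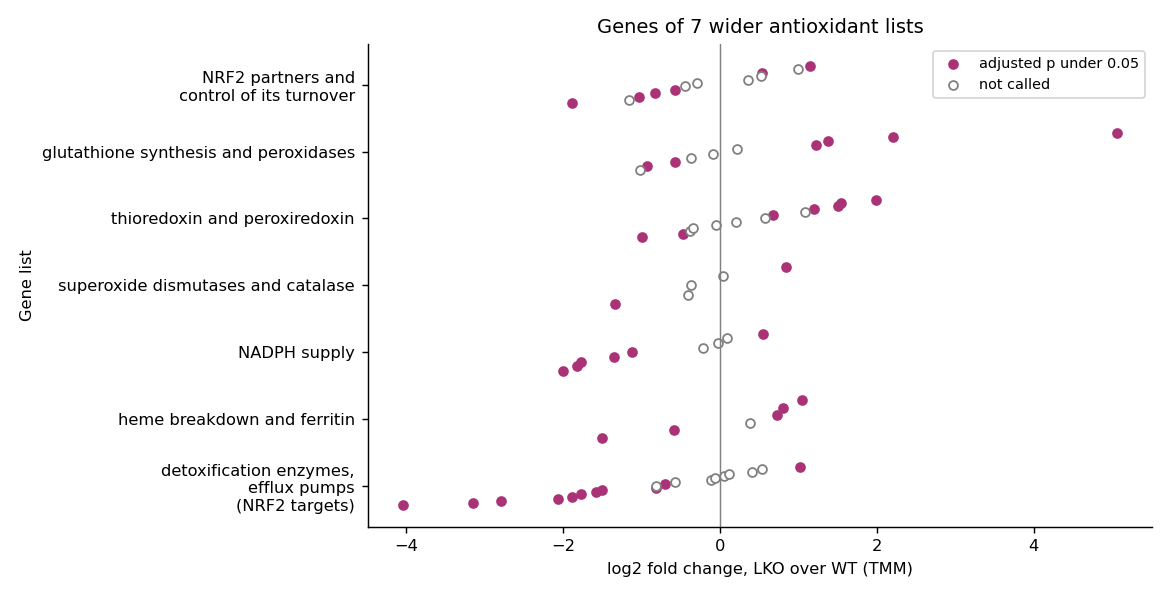
Log2 fold change of LKO over WT after TMM (x axis) for 74 tested genes in 7 lists (y axis), each point a gene and filled where edgeR's adjusted p was under 0.05. NADPH supply and detoxification genes lie mostly left of 0, with 5 and 10 genes called lower, and the thioredoxin and peroxiredoxin list has 5 genes called higher. Of all genes tested, 19.6% were called higher and 20.5% lower.

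Among 12 partners of NRF2 and genes that control its turnover, 2 rose, 4 fell and 6 did not pass, with a median log2 fold change of −0.37. These shares, 16.7% higher and 33.3% lower, stand beside 19.6% and 20.5% of all genes. With total counts 0 of the 12 were called higher and 7 lower (58.3%, against 51.4% of all genes). *Cul3*, the scaffold of the ubiquitin ligase that KEAP1 serves, rose from 46.0 ± 4.55 to 102 ± 21.0 CPM (SD, n = 3; log2 fold change 1.14, adjusted p = 0.0018, edgeR). With total counts it was at 0.29 and not called (adjusted p = 0.24, edgeR), beside a median of −0.90 for all genes. *Syvn1*, an ubiquitin ligase of the endoplasmic reticulum, fell from 23.8 ± 4.85 to 6.45 ± 1.17 CPM, a log2 fold change of −1.88 (adjusted p = 4.5e-04, edgeR). *Btrc*, which encodes the F-box protein of a KEAP1-independent route of NRF2 degradation, had a log2 fold change of −1.03 (adjusted p = 0.0071, edgeR). *Sqstm1*, the autophagy receptor that binds KEAP1 and the list's most abundant gene, was at 167 ± 15.8 CPM in WT against 215 ± 73.4 CPM in LKO mice and did not pass (adjusted p = 0.27).

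In the list for glutathione synthesis and peroxidases, 4 of 10 tested genes rose, 2 fell and 4 did not pass, and *Ggt1* had too many zero counts to be tested. The share called higher was above the 19.6% of all genes, and the share called lower was near their 20.5%. With total counts 3 were called higher and 6 lower, against 6.27% and 51.4% of all genes. *Gpx1*, the main cytosolic glutathione peroxidase and the most abundant gene of the list, fell from 1033 ± 58.0 to 545 ± 44.6 CPM (SD, n = 3; log2 fold change −0.92, adjusted p = 0.0039, edgeR). *Gpx3*, the secreted peroxidase, was almost absent in WT mice with 0.347 ± 0.0655 CPM and rose to 11.6 ± 6.48 CPM in LKO mice (log2 fold change 5.06, adjusted p = 3.9e-04, edgeR). *Gpx4*, which reduces lipid peroxides, rose with a log2 fold change of 2.21 (adjusted p = 0.0054), and *Glrx*, a glutaredoxin, with 1.38 (adjusted p = 6.7e-04, edgeR). *Gpx4* is uncertain, since its pseudogene *Gpx4-ps2* had 1917 to 2374 counts in WT mice against 3363 to 10252 in LKO mice and reads could be shared.

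The thioredoxin and peroxiredoxin list had 5 genes higher, 2 lower and 6 not called among 13, with a median log2 fold change of 0.57. As shares this is 38.5% higher and 15.4% lower, against 19.6% and 20.5% of all genes. With total counts 2 were called higher (15.4%, against 6.27% of all genes) and 5 lower (38.5%, against 51.4%). The summed level of the list was 1358 to 1548 CPM for WT mice against 2555 to 3781 CPM for LKO mice, and most of the difference was *Prdx1*. *Prdx1*, a cytosolic peroxiredoxin and the most abundant gene of the list, rose from 657 ± 62.7 to 1875 ± 576 CPM (SD, n = 3; log2 fold change 1.51, adjusted p = 0.0025, edgeR). *Prdx3*, its mitochondrial relative, rose with a log2 fold change of 1.55 (adjusted p = 6.1e-04, edgeR). These were the 2 that were called higher with total counts, with 0.62 for *Prdx1* (adjusted p = 0.023) and 0.67 for *Prdx3* (adjusted p = 0.0061, edgeR). In TPM *Prdx1* was at 910 ± 49.2 in WT against 869 ± 108 in LKO mice, and *Prdx3* at 130 ± 9.06 against 129 ± 4.93 (SD, n = 3). Neither was called by limma on log2(TPM + 1) (adjusted p = 0.69 and 0.95), where 71.5% of all genes were called lower. *Sesn1*, a sestrin, was at 11.4 to 14.2 CPM in WT and at 17.2, 20.1 and 113 CPM in LKO mice. Its log2 fold change of 1.99 (edgeR, adjusted p = 0.041) ranged from 0.56 to 2.41 with a mouse left out, with adjusted p from 0.016 to 0.12, and the lone high value was that of LKO mouse 3.

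Among 5 superoxide dismutase and catalase genes, 1 rose, 1 fell and 3 did not pass. Both shares were near those of all genes, 19.6% higher and 20.5% lower. With total counts 0 were called higher and 4 lower, against 6.27% and 51.4% of all genes. *Cat*, the peroxisomal catalase, was the most abundant and fell from 1662 ± 92.7 to 660 ± 110 CPM (SD, n = 3; log2 fold change −1.33, adjusted p = 0.0016, edgeR). *Sod3*, the extracellular dismutase, had a log2 fold change of 0.84 (adjusted p = 0.028, edgeR), which turned to −0.05 with total counts, beside a median of −0.90 for all genes. The *Sod3* call was lost with a mouse left out (largest adjusted p = 0.098, edgeR).

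The NADPH supply list had 5 genes lower, 1 higher and 3 not called among 9, and the lowest median of the 7 lists, −1.11. Lower calls made up 55.6% and higher calls 11.1%, against 20.5% and 19.6% of all genes. With total counts 0 were called higher and 8 lower (88.9%, against 51.4% of all genes). *Pgd*, the pentose phosphate enzyme that follows glucose-6-phosphate dehydrogenase and 6-phosphogluconolactonase, fell from 21.0 ± 3.41 to 5.24 ± 0.485 CPM (SD, n = 3), 4.01-fold lower (edgeR, adjusted p = 2.7e-04). *Tkt*, the transketolase of the same pathway, fell with a log2 fold change of −1.77 (adjusted p = 6.9e-04), and *Me1*, the cytosolic malic enzyme, with −1.82 (adjusted p = 0.0035, edgeR). The gene called higher was *Rpe*, the ribulose-phosphate epimerase of the pathway, at 0.54 (adjusted p = 0.042). It turned to −0.34 with total counts, beside a median of −0.90 for all genes. The *Rpe* call was lost with a mouse left out (largest adjusted p = 0.13, edgeR). *Pgls*, the 6-phosphogluconolactonase, was at −0.02 (adjusted p = 0.94, edgeR). Both were named after their values were seen. *Idh1*, the most abundant of the list, was at 500 ± 88.3 CPM in WT against 533 ± 212 CPM in LKO mice and did not pass (adjusted p = 0.84).

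Of 6 genes for heme breakdown and ferritin, 3 rose, 2 fell and 1 did not pass. That is 50.0% higher and 33.3% lower, against 19.6% and 20.5% of all genes. With total counts 0 were called higher and 3 lower (50.0%, near the 51.4% of all genes). *Hmox2*, the constitutive heme oxygenase, rose from 18.2 ± 1.57 to 31.8 ± 5.26 CPM (SD, n = 3; log2 fold change 0.80, adjusted p = 0.0055, edgeR), but was at −0.06 with total counts, where the median of all genes was −0.90. *Blvra*, a biliverdin reductase, rose with a log2 fold change of 1.05 (adjusted p = 0.0098, edgeR), which was 0.15 and not called with total counts (adjusted p = 0.60), beside the same median. *Ftl1*, the ferritin light chain and the most abundant of the list, fell from 1482 ± 113 to 523 ± 21.4 CPM (SD, n = 3), 2.84-fold (edgeR, adjusted p = 5.9e-04). Its pseudogenes went the other way, *Ftl1-ps1* with 2250 to 3080 counts in WT mice against 3510 to 4050 in LKO mice and *Ftl1-ps2* with 4 to 7 and 525 to 571, beside 88461 to 115191 and 18884 to 23192 for *Ftl1*, so that reads could be split between them.

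The detoxification enzymes and efflux pumps known as NRF2 targets had 10 genes lower, 1 higher and 8 not called among 19, with a median log2 fold change of −0.81. In shares, 52.6% were lower and 5.26% higher, against 20.5% and 19.6% of all genes. With total counts 0 were called higher and 15 lower (78.9%, against 51.4% of all genes). The largest falls were in glutathione S-transferases, enzymes that join glutathione to electrophiles. *Gstm3* fell from 24.2 ± 6.51 to 1.48 ± 0.385 CPM (SD, n = 3; log2 fold change −4.04, adjusted p = 2.1e-04, edgeR). *Gsta1* fell with a log2 fold change of −3.15 (adjusted p = 0.0054) and *Gsta4* with −2.79 (adjusted p = 5.3e-04, edgeR). *Gstp1*, the most abundant gene of the list, fell from 684 ± 107 to 164 ± 30.0 CPM, a log2 fold change of −2.06 (adjusted p = 3.8e-04, edgeR). The transferases are close relatives within their families, so reads could be shared among them. Each of these 4 was also called lower with total counts and after correction for gene length. Not every transferase of the list fell after TMM. *Gsta2*, named after its values were seen, overlapped between genotypes and did not pass (log2 fold change −0.07, adjusted p = 0.83, edgeR). With total counts it was at −0.96 (adjusted p = 0.0061, edgeR), beside a median of −0.90 for all genes.

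Markers of other liver cells moved with the genotype after TMM. The summed level of 8 hepatocyte markers was 49163 to 53013 CPM for WT mice against 106904 to 130932 CPM for LKO mice, with 2 genes higher and 1 lower. Most of that rise was *Alb*, at 21079 ± 2368 against 69388 ± 12609 CPM (SD, n = 3), whereas *Ttr* fell from 2101 ± 101 to 825 ± 278 CPM. *Hnf4a* (log2 fold change −0.30, adjusted p = 0.42) and *Serpina1a* (−0.29, adjusted p = 0.36, edgeR) did not pass. Beside the macrophage markers, 5 of 7 endothelial markers rose (summed 246 to 292 against 428 to 458 CPM) and 3 of 7 stellate cell markers rose and 1 fell (299 to 356 against 629 to 886 CPM). Of 6 erythroid markers 2 rose and 1 fell (192 to 324 against 879 to 1635 CPM), and of 5 cholangiocyte markers 4 were tested and 1 fell (32.9 to 50.2 against 13.7 to 30.2 CPM), the latter *Spp1*, which made up most of the sum at 39.6 ± 8.81 against 18.7 ± 7.44 CPM. With total counts the endothelial markers had 2 genes called higher and 2 lower, the macrophage markers 2 and 3, the stellate markers 1 and 3, and the hepatocyte markers 2 and 3. Over all genes tested, 19.6% were called higher and 20.5% lower after TMM, and 6.27% and 51.4% with total counts. The endothelial counts with total counts are 28.6% each way. Lymphocyte and neutrophil markers overlapped, at 47.4 to 68.3 and 41.9 to 69.8 CPM, with 2 of 6 tested genes higher. No marker gene was at 0 in all 6 mice. The part of these cells in the values above was not tested.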

How the data were processed

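The authors sequenced RNA of 6 livers, each as 1 library. The submitters' processing notes name HISAT2 2.1.0, Bowtie2 2.3.4.1 and StringTie 2.1.3b, with the genome build mm10. The paper describes a total RNA kit with removal of rRNA, whereas the labels name a kit that selects mRNA. The authors deposited read counts per gene without normalization, FPKM per length of gene and fragments sequenced, and TPM, which has the same sum in each library. Groups follow the genotype that the labels give.

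Genes with more than 1 zero count were left out, as in the paper, which left 18636. Counts were scaled by TMM and compared between genotypes in edgeR 4.0.16 (R 4.3.3) by its quasi-likelihood test, which is two-sided, and p-values were adjusted over all of these genes (Benjamini-Hochberg). Single ratios were compared with an exact permutation test. The edgeR, DESeq2 and limma fits were tried on simulated counts with 200 changed genes. That simulation held no shift between libraries like that in the TMM factors. Its gene lengths were drawn at random, and the permutation test was not part of it. Alternatives were edgeR's exactTest, DESeq2 1.42.0 and its size factors, upper-quartile scaling, total counts, protein-coding genes alone, 3 filters on low counts, limma 3.58.1 on log2(TPM + 1), a replicate block, a gene length correction by lowess (span 0.3) on the ratio of count to FPKM, other thresholds and leaving out each mouse. Scaling on totals of protein-coding genes was chosen after seeing the data.

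The 10 genes and all lists were chosen with earlier results of these data known. Named genes are the 10, *Pak4* and, in each list, the 3 with the largest absolute log2 fold change among called genes without overlap and the one with the highest mean TPM. Overlapping genes, pseudogenes and *Rn7sk* were named after their values were seen. Coordinates and promoters are from RefSeq on GRCm38.p6, the assembly behind mm10, where the identifiers of all 10 genes matched. Mice are taken as separate animals.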

Additional observations from a re-analysis of the deposited data

How the results depend on the processing

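*Gclc* and *Nfe2l2* kept direction and call under all 20 alternatives. *Txnrd1* lost its call in 7 of the 20 and *G6pdx* in 8, both always lower. The 4 NRF2 genes called lower became 8 with total counts, 7 with total counts of protein-coding genes and 9 with limma on log2(TPM + 1), scales on which most genes shifted down, and 2 after correction for gene length or with a threshold of 0.01. The replicate block gave 2, alone and with the length correction (17.7% and 16.0% of all genes lower). The range was 2 to 5 with a mouse left out, with 2 without WT mouse 1, LKO mouse 1 or LKO mouse 2. No alternative called any of the 9 genes higher. The block stands for no known pairing, since the labels link same-numbered mice only by the replicate number. The paper used littermates as controls, but the labels do not say which mice shared a litter. Deviations of same-numbered mice correlated at −0.0081, −0.0376 and −0.0425 over all genes tested, which cannot show whether a litter or batch was shared. The cause of the lost calls was not tested.

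In the wider lists the 17 genes higher became 5 with total counts of all or of protein-coding genes, 1 with limma and 11 at a threshold of 0.01, with a range of 11 to 18 over mice left out (lowest without WT mouse 3). The 26 lower became 48, 46 and 59 with the first 3 scalings, with a range of 19 to 30. Over all genes, 3661 higher and 3815 lower calls became 1169 and 9573 with total counts, 7476 calls in all became 13775 with limma and 4374 at 0.01, and 5617 to 7230 with a mouse left out. *Pak4*, at −0.71 after TMM with a range of −1.08 to −0.50 over mice left out, was called with total counts (−1.54). Without a mouse the log2 ratio of *Gclc* to *Gclm* lay between −2.29 and −1.74, and that of *Nfe2l2* to *Keap1* between −0.57 and −0.03.

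Log2 fold changes close to 0 turned with the scaling. With total counts, total counts of protein-coding genes and limma, *Nqo1* was at −0.84, −0.66 and −1.30, *Gclm* at −0.76, −0.59 and −1.41 and *Srxn1* at −0.50, −0.32 and −1.09. *Nqo1* was at −0.013 after length correction, −0.0095 with the block added, and −0.12 to 0.22 without a mouse, and *Gclm* at −0.00053 to 0.24. *Slc7a11*, with 0 counts in LKO mice, and *G6pdx*, with 84 to 476 counts, are the genes most limited by depth.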

Other observations

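Other genes of the lists, named after their values were seen, were also called by edgeR. Among partners of NRF2, *Nfe2l1*, which encodes the related factor NRF1, had a log2 fold change of −0.82 (adjusted p = 0.0031) and *Mafg*, a small MAF partner, one of −0.57 (adjusted p = 0.029). *Rbx1*, the RING subunit that works with CUL3, was at 0.54 (adjusted p = 0.024) and turned to −0.34 with total counts, where the median of all genes was −0.90. In glutathione metabolism, *Gss*, the synthetase of the second step, was at −0.58 (adjusted p = 0.024, edgeR), on the same side as *Gclc*.

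In the pentose phosphate pathway *Taldo1* was at −1.35 (adjusted p = 9.4e-04) and *Rpia* at −1.11 (adjusted p = 0.029, edgeR), whereas *Rpe* was higher (0.54, adjusted p = 0.042) and *Pgls* did not pass (−0.02, adjusted p = 0.94, edgeR). Of the detoxification enzymes, *Ephx1*, the microsomal epoxide hydrolase, was at −1.89 (adjusted p = 2.2e-04), *Gstm1* at −1.77 (adjusted p = 3.3e-04) and *Aox1* at −1.58 (adjusted p = 7.7e-04), and the efflux pump *Abcc3* was at −0.81 (adjusted p = 0.0036, edgeR). *Prdx6* was called lower (−0.99, adjusted p = 0.014), in contrast to *Prdx4* (1.20, adjusted p = 0.0079) and *Prdx5* (0.67, adjusted p = 0.022, edgeR). With total counts *Prdx5* turned to −0.21, beside a median of −0.90 for all genes. The calls of *Mafg*, *Rbx1*, *Gss*, *Rpia* and *Prdx5* were lost with a mouse left out, where the largest adjusted p of each was 0.076 to 0.10 (edgeR).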
